A study of Mus musculus with 6 samples.

Results

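Chromatin accessibility at genes of T cells and natural killer (NK) cells was examined by ATAC-seq in transformed mouse myeloid cells that had or lacked Cebpa and Cebpb, the genes for C/EBPα and C/EBPβ. The set comprised 37 genes, defined by name, and it was drawn up with earlier results of these data known. A region of the authors' table belonged to a gene if it overlapped the GENCODE M21 gene body extended by 25 kb on each side. By this rule 17 of the 10016 listed regions lay at 9 of the 37 genes, and no region fell into the windows of several of them.

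In ATAC-seq the Tn5 transposase cuts and tags open DNA, so that the reads over a region measure its accessibility. All cells were fetal liver cells from Cebpa fl/fl Cebpb fl/fl mice, transformed by retroviral MLL-ENL and grown in IL-3. WT cells kept Cebpa and Cebpb, and their labels name no vector. dKO cells were Cebpa KO and Cebpb KO and expressed GFP, and dKO-LAP* cells additionally expressed the rat C/EBPβ isoform LAP*. Each group had 2 libraries, which the labels number without saying whether they came from separate cultures. The table held WT and dKO values only, and dKO-LAP* was not analysed here. The dKO lines grew out as rare clones that survived deletion, so genotype, vector and clone cannot be told apart in this comparison.

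A level is given here as the log2 of the mean normalised reads over the 2 libraries of a group, which is the authors' mean and carries no error. A change is the dKO level minus the WT level. The table listed only regions that passed the corrected P-value of 0.05 in the authors' comparison, so a gene without a region had no listed change and may still be open or closed in both groups. No test could be run on single libraries, and everything below describes 4 libraries as 2 group means. The lowest level was -0.15 in both groups and was taken as 1 read per library, an inference from the values, since the table gives no reads. On that scale 3 reads per library gave a level of 1.43, which was used as a floor. It is a set level and no limit on counting error, and copies made by PCR are not independent molecules. None of the 17 regions was at or under that floor in either group. A group mean cannot tell a region that is open in few cells from one that is weakly open in all.

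T cells recognise antigen through the T cell receptor, whose CD3 chains pass the signal to the kinases LCK and ZAP-70, while CD4 or CD8 binds the presenting molecule. Costimulatory receptors strengthen that signal, and inhibitory receptors such as CTLA-4, PD-1 and TIM-3 restrain it. NK cells and cytotoxic T cells kill with perforin and granzymes, and NK cells read their targets through receptors such as NKG2D and NKp46. Several of these genes are not exclusive to lymphocytes. TIM-3, encoded by Havcr2, is for example also found on myeloid cells and on acute myeloid leukaemia stem cells.

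Of the 37 genes, 9 (24.3%) had a listed region, against 35.2% of the 21755 protein-coding genes by the same window. The median window was 65.3 kb for the 37 genes and 67.4 kb for protein-coding genes. Accessibility was higher in dKO at 13 of the 17 regions (76.5%), compared with 60.3% of all listed regions. It was lower at 4 regions, compared with 39.7% of all listed regions. Of the 9 genes, 6 had higher regions only (Havcr2, Cd5, Cd27, Tcf7, Tbx21 and Tox2), 2 had lower regions only (Prf1 and Cd2), and Themis had both. With 17 regions at 9 genes, in which neighbouring regions share a locus, these shares are descriptions and were not tested.

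**Figure D1:**
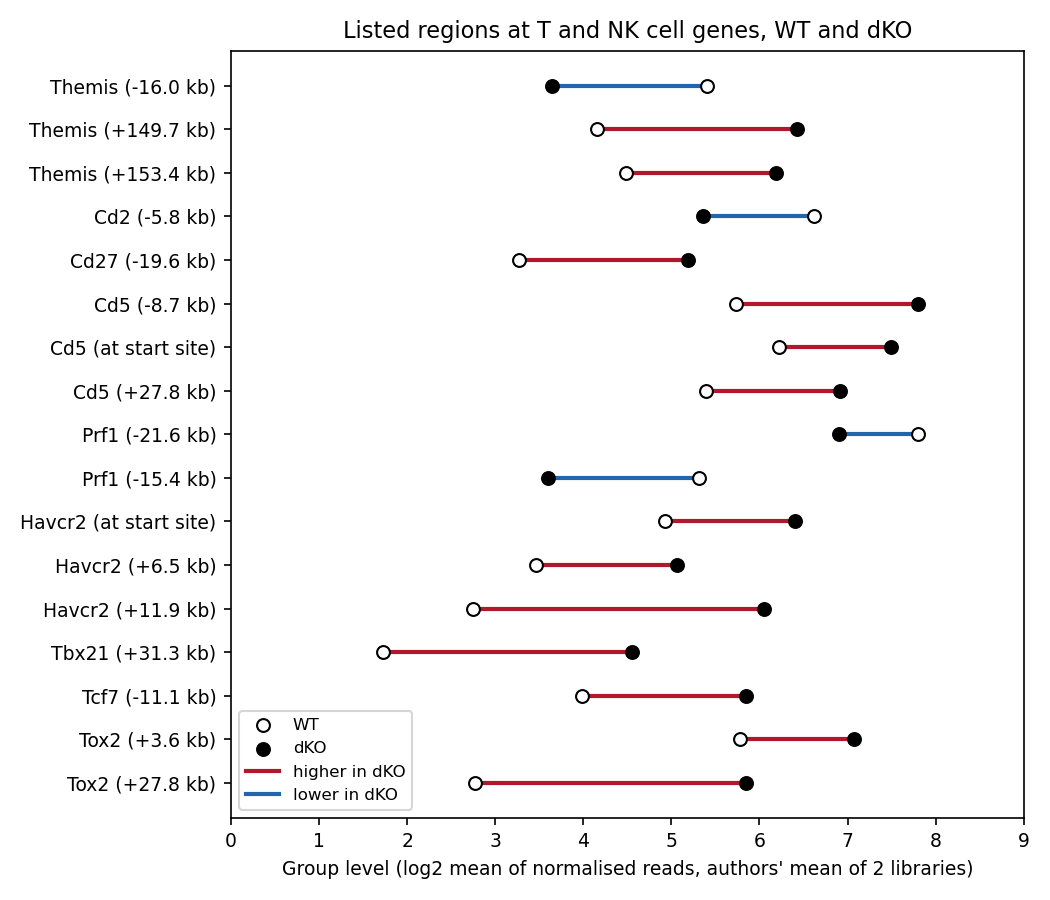
Group levels of the 17 listed regions, 1 line per region, with the gene and the distance from its nearest annotated start site on the vertical axis (negative values are upstream) and the log2 mean of normalised reads on the horizontal axis. Open circles are WT, filled circles are dKO, red lines join levels that were higher in dKO and blue lines those that were lower. The 4 blue lines belong to Themis, Cd2 and Prf1, and the longest red lines to Havcr2 and Tox2.

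The sequences below are those of the regions at a start site of their gene and of the region with the largest change in each role group, taken from the GRCm38.p6 (mm10) assembly on the plus strand. Exons were left out, and no stretch is longer than 300 bases. Capitals mark matches to the strings searched on both strands, which were TTGCNNAA or TTACNNAA for C/EBP, TGACTCA or TGAGTCA for AP-1, TGTGGTT for RUNX, GAGGAAGT for PU.1, CTTTGAT or CTTTGAA for TCF/LEF, GGTGTGA for T-box factors and AGATAA for GATA factors. No matches overlapped within these stretches.
Havcr2, promoter part of the start site region, chr11:46454635-46454934: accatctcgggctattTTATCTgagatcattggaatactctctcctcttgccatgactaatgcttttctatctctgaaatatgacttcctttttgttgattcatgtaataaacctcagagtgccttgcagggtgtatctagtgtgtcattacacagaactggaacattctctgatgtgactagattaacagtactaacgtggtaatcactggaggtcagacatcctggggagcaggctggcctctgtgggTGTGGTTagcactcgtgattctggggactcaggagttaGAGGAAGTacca
Havcr2, region of the largest rise, chr11:46466944-46467243: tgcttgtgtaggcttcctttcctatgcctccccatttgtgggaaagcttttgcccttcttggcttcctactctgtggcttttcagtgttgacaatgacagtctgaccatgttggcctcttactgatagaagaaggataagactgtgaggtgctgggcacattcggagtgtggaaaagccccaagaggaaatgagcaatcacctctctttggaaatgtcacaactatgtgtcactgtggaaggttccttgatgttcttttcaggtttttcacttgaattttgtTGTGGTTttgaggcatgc
Cd5, promoter part of the start site region, chr19:10739003-10739265: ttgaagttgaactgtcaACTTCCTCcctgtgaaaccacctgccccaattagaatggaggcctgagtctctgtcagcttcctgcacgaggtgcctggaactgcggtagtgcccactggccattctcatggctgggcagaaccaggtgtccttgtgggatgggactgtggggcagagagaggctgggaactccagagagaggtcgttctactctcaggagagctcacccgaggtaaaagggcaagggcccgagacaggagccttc
Cd5, upstream region, chr19:10747737-10748036: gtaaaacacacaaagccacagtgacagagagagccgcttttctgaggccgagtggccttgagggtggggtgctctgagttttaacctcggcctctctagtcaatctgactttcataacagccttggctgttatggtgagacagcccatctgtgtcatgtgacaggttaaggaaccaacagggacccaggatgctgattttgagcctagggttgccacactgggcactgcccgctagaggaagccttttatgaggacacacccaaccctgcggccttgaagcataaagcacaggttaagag
Tox2, intronic region, chr2:163253289-163253588: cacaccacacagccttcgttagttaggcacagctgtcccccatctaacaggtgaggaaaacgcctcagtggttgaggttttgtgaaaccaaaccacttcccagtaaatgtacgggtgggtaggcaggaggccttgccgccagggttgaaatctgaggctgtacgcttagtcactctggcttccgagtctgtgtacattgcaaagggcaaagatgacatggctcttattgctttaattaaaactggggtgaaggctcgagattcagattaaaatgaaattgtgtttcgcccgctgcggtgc
Themis, downstream region, chr10:28887156-28887455: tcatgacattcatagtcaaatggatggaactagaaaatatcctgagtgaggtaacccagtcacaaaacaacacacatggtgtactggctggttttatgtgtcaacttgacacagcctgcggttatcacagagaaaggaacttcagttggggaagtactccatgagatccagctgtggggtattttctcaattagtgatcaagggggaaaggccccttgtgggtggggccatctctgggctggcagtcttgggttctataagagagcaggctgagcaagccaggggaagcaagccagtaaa
Prf1, upstream region, chr10:61282127-61282426: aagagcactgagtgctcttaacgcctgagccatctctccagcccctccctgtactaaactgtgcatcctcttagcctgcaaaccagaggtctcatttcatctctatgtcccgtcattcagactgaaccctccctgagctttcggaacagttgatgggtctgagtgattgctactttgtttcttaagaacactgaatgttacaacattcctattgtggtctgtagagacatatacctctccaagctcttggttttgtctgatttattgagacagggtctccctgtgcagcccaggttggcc

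Of the 6 genes grouped here as inhibitory receptors only Havcr2 had listed regions, and all 3 were higher in dKO. The whole-table shares, 35.2% of protein-coding genes with a region and 60.3% of regions higher, are the background for this and every role group below, and groups this small cannot be set apart from them. The region over the start site (chr11:46454582-46455057) overlaps an exon and had a level of 4.93 in WT and 6.40 in dKO, a change of 1.47 or 2.77-fold. In the gene body, an intronic region 6472 bp from the start site (chr11:46461441-46461765) went from 3.46 to 5.06, a change of 1.60. The third region (chr11:46466847-46467340), 11878 bp from the start site and overlapping an exon, went from 2.75 to 6.05. This was the largest change of the 17 regions, 3.30 or 9.85-fold, and 6.56% of all listed regions that were higher in dKO changed more. On the read scale inferred above, the WT level of 2.75 was 7.46 reads per library, so the fold change rests on few WT reads. The promoter stretch printed above holds a RUNX, a PU.1 and a GATA string. The other genes of this group, Ctla4, Pdcd1, Lag3, Tigit and Cd96, had no listed region.

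Costimulatory and adhesion molecules had 5 regions at 3 of 7 genes, 4 higher and 1 lower, beside the background of 35.2% of genes and 60.3% of regions higher. Cd5, with 3 of these regions, is counted in this group although its product dampens antigen receptor signals in T cells and B-1 cells. Cd5 encodes a scavenger-receptor family protein. Its start site region (chr19:10738792-10739265), which overlaps an exon, had a level of 6.22 in WT and 7.49 in dKO, a change of 1.27. A region 8695 bp upstream (chr19:10747697-10748295) went from 5.73 to 7.80, a change of 2.07 or 4.20-fold. This upstream region covers a start site of the noncoding transcript A430093F15Rik. A region 22816 bp beyond the end of the gene (chr19:10693968-10694300) went from 5.39 to 6.91, but lies within Vps37c, which encodes a subunit of an endosomal sorting complex. All 3 Cd5 regions were thus higher in dKO, and their dKO levels exceeded those of 80.6% to 92.9% of all listed regions.

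The remaining regions of this group lay upstream of Cd27 and Cd2. CD27 is a TNF receptor family member on naive T cells and early lymphoid progenitors. The Cd27 region (chr6:125256573-125256888), 19563 bp upstream, went from 3.27 to 5.19, a change of 1.92, and its nearest start site is that of the pseudogene Gm44259. CD2 is an adhesion receptor of T and NK cells. Its region (chr3:101293692-101294244), 5753 bp upstream, was lower in dKO, with a level of 6.62 in WT and 5.36 in dKO and a change of -1.26. Cd28, Icos, Cd226 and Cd7 had no listed region.

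Transcription factors had 4 regions at 3 of 8 genes, a share of genes near the 35.2% of the background. All 4 were higher in dKO, as were 60.3% of all listed regions. Tox2 encodes an HMG-box factor that takes part in NK cell and follicular helper T cell development. Both of its regions were intronic. The region 3577 bp from an annotated Tox2 start site (chr2:163229031-163229564) went from 5.78 to 7.07, a change of 1.29, and that at 27768 bp (chr2:163253222-163253656) from 2.77 to 5.85, a change of 3.08 or 8.46-fold. The latter rests on an inferred 7.57 reads per library in WT. As at Havcr2, the more distant region had the lower WT level and the larger change. Only regions past the authors' corrected P-value are listed, which favours large changes where levels are low. This order is therefore not read as a trait of these genes.

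Tcf7 encodes TCF-1, which acts with Notch signals at the onset of T cell development. Its region 11073 bp upstream (chr11:52294087-52294460) went from 3.99 in WT to 5.85 in dKO, a change of 1.86. Tbx21 encodes T-bet, the factor of type 1 helper and NK cells. The Tbx21 region lay 14014 bp beyond the end of the gene (chr11:97083759-97084057) and went from 1.73, the lowest WT level of the 17 regions, to 4.55. That change of 2.82 or 7.06-fold starts from an inferred 3.68 reads per library in WT, and the nearest start site is that of the pseudogene Gm11573. Eomes, Bcl6, Tox, Lef1 and Satb1 had no listed region.

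**Figure D2:**
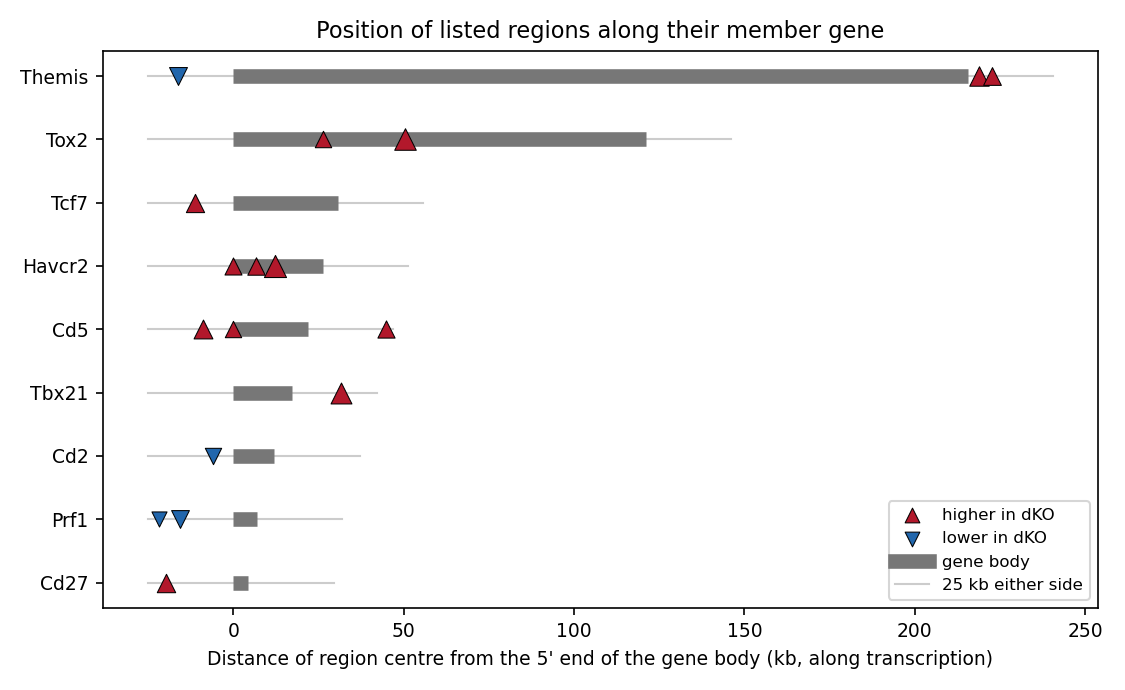
Positions of the 17 listed regions along the 9 genes, as the distance of the region centre from the 5′ end of the gene body in kb along transcription. Thick bars are gene bodies, thin lines the 25 kb on either side, and triangles the regions, pointing up where dKO was higher and down where it was lower, with a larger triangle for a larger absolute change. The lower regions all lie upstream of their genes, and the higher regions lie upstream, within and downstream. Distances in the text are from the nearest annotated start site of any transcript of the gene, which can lie inside the gene body, as for regions of Tox2, Themis, Havcr2 and Cd5.

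Among genes of the antigen receptor, its coreceptors and its kinases, Themis was the only one of 7 with listed regions. THEMIS sets the strength of receptor signals during thymocyte selection. A region 16023 bp upstream (chr10:28651932-28652337) was lower in dKO, at 5.40 in WT and 3.65 in dKO, a change of -1.75. Regions 3301 bp and 7030 bp beyond the end of the gene were higher. The nearer one (chr10:28887119-28887492) went from 4.15 to 6.43, a change of 2.28 or 4.86-fold, and the farther one (chr10:28890848-28891257) from 4.49 to 6.19, a change of 1.70. Both overlap the transcribed pseudogene 4930519F09Rik and lie over 100 kb from the nearest Themis start site. Of the bases of the nearer region, 97.6% are soft-masked as repeats in the assembly, against a median of 9.12% over all listed regions, so reads there may be shared with other copies. Cd3e, Cd3g, Cd4, Cd8a, Lck and Zap70 had no listed region.

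Cytotoxic effectors and cytokines had 2 regions, both upstream of Prf1 and both lower in dKO. Prf1 encodes perforin, the pore-forming protein of cytotoxic granules. The region 21648 bp upstream (chr10:61275602-61276185) had a level of 7.80 in WT and 6.90 in dKO. Its change of -0.90 was the only one under 2-fold, so that 16 of the 17 regions (94.1%) changed at least 2-fold, against 85.5% of all listed regions. The region 15373 bp upstream (chr10:61282093-61282460) went from 5.31 to 3.6, a change of -1.71 or 3.27-fold. Both regions lie nearer to the start site of Adamts14, a procollagen-processing protease, at 2164 bp and 8655 bp. Nkg7, Gzma, Ifng and Xcl1 had no listed region, nor did the NK cell receptors Klrd1, Klrk1, Klrg1 and Ncr1.

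The lower regions at Themis and Prf1 were on chromosome 10. Of the 5 regions on that chromosome, 3 were lower in dKO, although 82.0% of the 767 listed regions there were higher. The 12 regions on the other 5 chromosomes were higher with the exception of the Cd2 region. The share of all listed regions that were higher was 62.6% on chromosome 11, 72.4% on chromosome 19, 55.6% on chromosome 2, 60.2% on chromosome 3 and 49.5% on chromosome 6.

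Placed among all listed regions, the 17 were ordinary in level and width. Their median level was 4.93 in WT and 6.05 in dKO, against 5.31 and 5.59 over all listed regions. The median change was 1.86 over the 13 higher regions and 1.58 over all higher regions. For the 4 lower regions it was -1.48, against -1.85 over all lower regions. The median width was 410 bp against 400 bp, and the median GC content 48.1% against 49%.

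**Figure D3:**
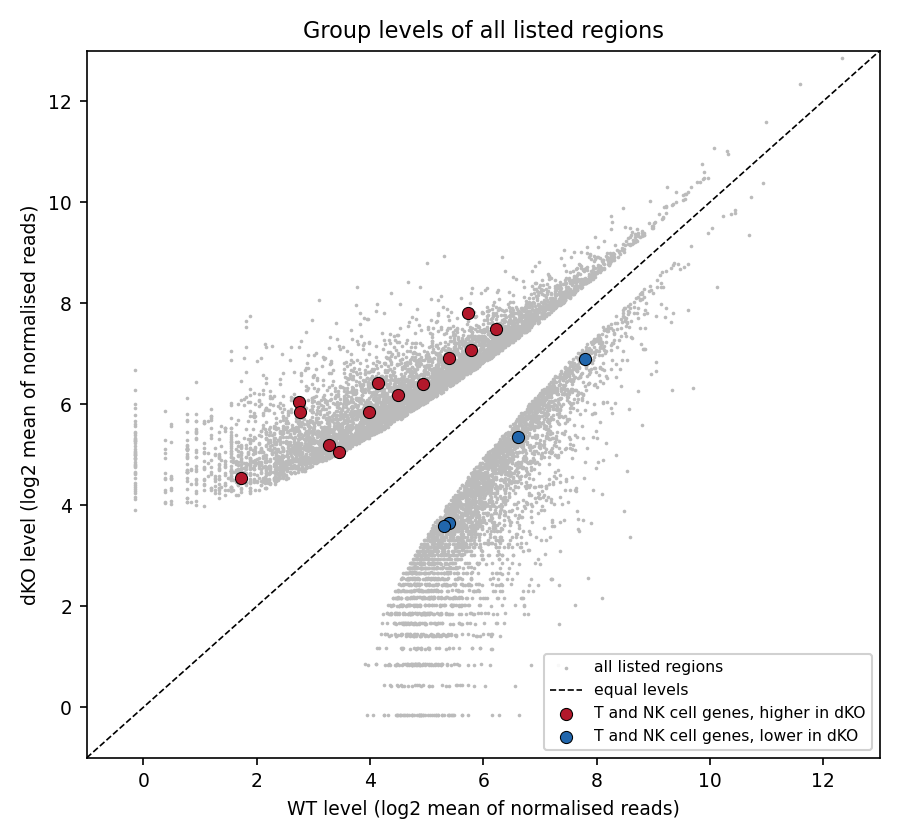
WT level (horizontal axis) against dKO level (vertical axis) of all 10016 listed regions, both as the log2 mean of normalised reads. Grey points are all listed regions, red and blue points the 13 higher and 4 lower regions at T and NK cell genes, and the dashed line marks equal levels. The empty band along the line holds the changes that were too small to be listed, and the coloured points lie within the grey clouds.

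Only the regions of Havcr2 and Cd5 lay within 1 kb of a start site of their gene. These 2 of 37 genes (5.41%) compare with 6.47% of all protein-coding genes, a share near the background. By their relation to the gene, 3 regions overlapped an exon, 3 were intronic, 7 lay upstream and 4 downstream. The nearest start site of any annotated gene was that of the T or NK cell gene for 9 regions and that of another gene for 8. For Prf1, Tbx21 and Cd27 no region had its own gene as the nearest.

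The 25 kb limit decided some memberships. Just inside it were the Cd5 region at 22816 bp and the Prf1 region at 21648 bp from the gene. Just outside were a region 27.4 kb from Bcl6 (4.99 in WT, 6.92 in dKO) and a region 29.8 kb from Cd4 (4.57 and 5.86). Nkg7, which encodes a cytotoxic granule protein, had its nearest listed region at 37.2 kb (3.30 and 6.09), and Gzma at 67.0 kb (4.85 and 1.18). Over the 28 genes without a region, the nearest listed region was 27.4 kb to 4320 kb away, with a median of 132 kb, and for 10 of them it was within 100 kb. The farthest was that of Cd226, and the nearest listed regions of Satb1, Xcl1 and Pdcd1 were 761 kb, 668 kb and 460 kb away.

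The strings given above were looked for in the 200 bp around the centre of each region. C/EBP strings occurred in 2 of the 4 lower regions (Themis and Cd2) and in 1 of the 13 higher regions (Themis), against 40.7% of all lower and 20.2% of all higher regions. AP-1 strings occurred in 3 of the higher regions (Havcr2 intron, Tcf7 and Tbx21) and in none of the lower ones, against 26.6% and 4.65%. RUNX strings were present in 3 higher regions (Havcr2, Tox2 and Themis, 13.7% of all higher), GATA strings in 2 (Tcf7 and Tox2, 8.35%) and a PU.1 string in 1 (Cd5, 13%). No region had a TCF/LEF or a T-box string in its centre, which 5.38% and 3.3% of all listed regions had. These are counts of letters over few regions, and a match is not a binding site.

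The C/EBP and AP-1 matches are shown with the bases around them, since these strings had the largest differences in percentage points between lower and higher regions of the whole table. They were chosen for printing after their values were seen. The C/EBP matches in the higher Themis region overlap each other and are shown once.
Themis, lower region, C/EBP, chr10:28652043-28652072: gtgctggccggTTCTGCAAacagtgttctt
Cd2, lower region, C/EBP, chr3:101293915-101293944: gacacagggtgTTTCGCAAcagctaacttg
Themis, higher region, C/EBP, chr10:28890960-28890989: tggagtaatatTTTTGCAAaagctttatta
Havcr2, higher region, AP-1, chr11:46461544-46461572: cctgggttgcaTGAGTCActgtctcaaaa
Tcf7, higher region, AP-1, chr11:52294308-52294336: gaaaacggaagTGAGTCAcccaaggtcac
Tbx21, higher region, AP-1, chr11:97083950-97083978: aggaaggacaaTGAGTCAacatggctgtg

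Other genes of the same pathways were taken from a list of 49. Of these, 28 (57.1%) had a listed region, with 45 higher and 11 lower regions among 56, or 80.4% higher, and a median change of 1.08. Over the whole table, 35.2% of protein-coding genes had a region, 60.3% of regions were higher and the median change was 0.98. The list was drawn up with earlier results of these data known, and its shares were not tested against those of the 37 genes. Where 60.3% of all listed regions were higher in dKO, all 14 regions at 6 of 10 genes for ligands on the partner cell were. These genes were Cd80, Cd86, Icosl, Pvr and the neighbouring Cd274 and Pdcd1lg2, which encode the PD-1 ligands. The nearest start site was that of another gene for the Pvr (Igsf23), Cd80 (D930030I03Rik) and Cd274 (AC119228.1) regions. The same held for the region downstream of Cd86 (Gm49662). All 8 regions at NK cell receptors and adaptors were higher as well, at 3 of 6 genes. These were the adaptor genes Fcer1g and the adjacent Tyrobp and Hcst, whose products also serve myeloid receptors. An Hcst region (chr7:30421489-30421849) covers a start site of Nfkbid. The 8 transcription factor genes had 12 higher and 2 lower regions at 7 genes. Antigen receptor signalling genes had 5 higher and 6 lower regions at 5 of 10 genes. Cytotoxic effectors and cytokines had 4 and 2 at 4 of 7 genes, and costimulatory and inhibitory receptors 2 and 1 at 3 of 8. Among the effectors and cytokines, the higher regions of Gzmm and Tnf lay nearer to start sites of other genes (Tpgs1, Hcn2 and Gm16181).

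**Figure D4:**
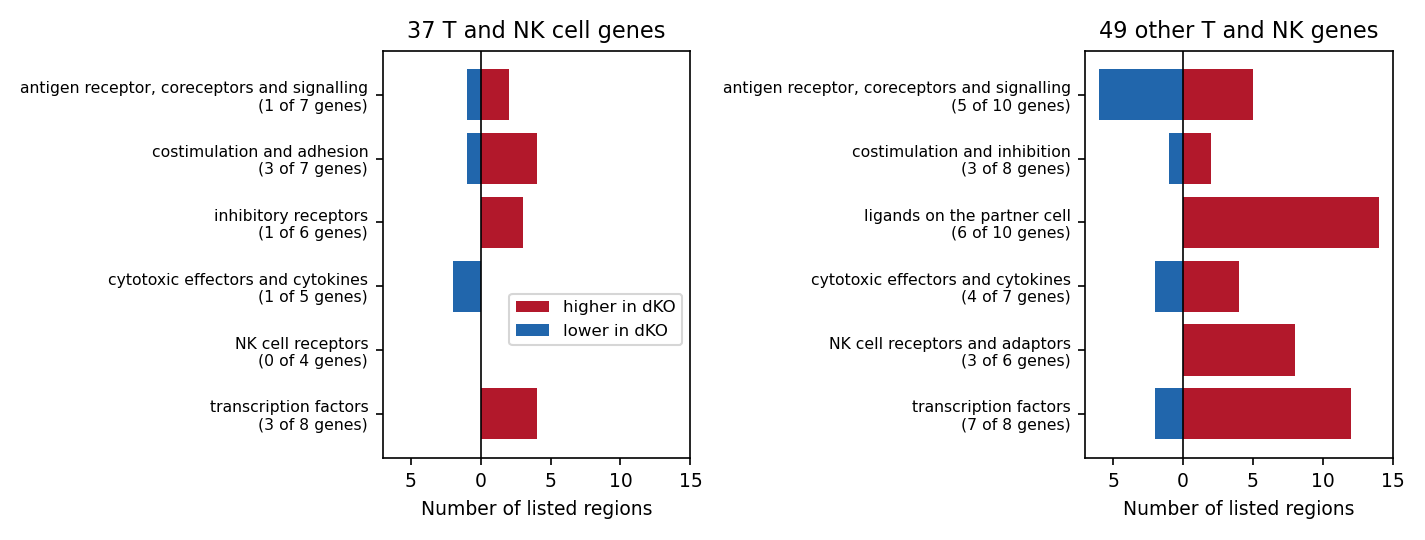
Number of listed regions at the 37 T and NK cell genes (left) and at the 49 other T and NK genes (right), by role. Red bars to the right of 0 count regions higher in dKO and blue bars to the left those lower in dKO, and the labels give how many genes of each role had a region. The ligands on the partner cell, with 14 regions, and the NK cell receptors and adaptors, with 8, had higher regions only. The NK cell receptors among the 37 genes had no listed region.

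The 6 largest changes among the other genes, ranked before the floor was applied, went both ways. With levels set to the floor, a region downstream of Cd86 (2.04 to 5.23, 9.13-fold) would rank above those of Ccl5 and Slamf1. An intronic region of Ccl5, a chemokine of activated T cells, was at the lowest level in WT (-0.15) and at 4.61 in dKO. Against the floor of 3 reads per library it was 9.06-fold higher. Lower regions, with folds against the floor, lay upstream of Slamf1 (4.6 to 0.43, 9.0-fold), in an intron of the kinase gene Fyn (4.66 to 0.86, 9.38-fold) and downstream of Gzmk (4.85 to 1.18, 10.7-fold). Their inferred dKO reads per library were 1.49, 2.01 and 2.51. Counting error at such levels can pass the floor, so the folds against it are not minimum values. The Gzmk region was also the listed region nearest to Gzma. A region upstream of Runx3, a factor of CD8 T cells, went from 2.79 to 6.47 and an intronic region of Pdcd1lg2 from 3.07 to 6.49, changes of 3.68 and 3.42.

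Markers of other cells that the cultures could hold were inspected beside these results. Of 12 myeloid progenitor markers, 9 had listed regions, 16 higher and 3 lower. Their highest WT level, 11.6, was at a region 24603 bp from the Ly6c2 start site. The region 649 bp from that start site had a WT level of 2.87. The shares over the whole table, 35.2% of protein-coding genes with a region and 60.3% of regions higher, apply to these lists too, and no list was tested against them. Among B cell markers, Ebf1 had 2 higher and Pax5 had 4 lower regions. Mast cell and basophil markers had 7 higher and 2 lower regions at 3 of 6 genes, 6 of the higher ones at Gata2. The lower region near Mcpt8 was the one that also lay in the window of Ctsg, a myeloid progenitor marker. Since the table lists changes and not presence, the cell type named by the labels could not be checked against its markers, and the part of other cell types in the results at T and NK cell genes was not tested.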

How the data were processed

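The ATAC-seq libraries came from sorted cells. Within PiGx, the authors called peaks with MACS2 on reads that Bowtie 2 had placed on mm10. How duplicates and the Tn5 offset were handled, and how reads were normalised, is not given in the sources used here. PCR copies, if kept, would add reads, and an unshifted cut site moves a region's edge by a few bases. Per the submitters' processing notes and the study's methods, the authors compared groups with DiffBind 2.14.0. Their deposited table gives, per region, log2 means of normalised reads for WT and dKO, which were used here, and a fold change, p-value and corrected p-value of their comparison. The latter were not used, except to check that none of the 10016 rows exceeded a corrected p-value of 0.05. Both deposited files hold this same table. No depth per sample was in it, so depth is unknown, and the read scale was inferred from the lowest level.

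Changes were computed as dKO minus WT level. Regions were assigned with GENCODE M21, and a region in several windows would go to the nearest start site. Coordinates are 1-based on mm10. Sequences came from the GRCm38.p6 assembly. Assignment and motif search were tested on simulated data (Python 3.11.15, pandas 2.3.3). Genes, lists and rules were chosen with earlier results of these data known. Levels were to be given singly for regions within 1 kb of a start site of their gene, the 12 regions with the largest absolute change and the largest of each gene. The 2 regions outside that rule, the Tox2 region at 3577 bp and the Prf1 region at 21648 bp, are given as well, to account for all. Of the other genes, the 6 regions with the largest absolute change were named. Fold changes against the floor set levels under 3 reads per library to that level, and they are not lower bounds. Part of the B cell marker list is not reported here.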

Additional observations from a re-analysis of the deposited data

How the results depend on the processing

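The counts at the 37 genes followed the window, since a wider one takes in more regions. With the gene body alone there were 6 higher and 0 lower regions at 3 genes (median change 1.54), with 10 kb on each side 9 higher and 1 lower at 5 genes (1.65), and with 100 kb 25 higher and 8 lower at 18 genes (1.47). Regions whose nearest start site of any gene was that of the member gave 7 higher and 2 lower at 6 genes (1.47). The share of protein-coding genes with a region by window was computed for 25 kb only (35.2%). The numbers of genes under these other settings therefore cannot be set against a background. The median change of 1.60 became 1.65 with absolute changes of at least 1, 1.52 without regions under the lower quartile of level, 1.70 with 1 value per gene and 0.62 after subtracting 0.98, the median change of all listed regions. The number of regions within 1 kb of a start site was 2 also for protein-coding transcripts alone and for 2 kb. At the 49 other genes, 10 kb on each side gave 27 higher and 11 lower regions, and absolute changes of at least 1 gave 29 higher and 9 lower. Searching whole regions in place of the central 200 bp, an alternative chosen after seeing the data, gave C/EBP strings in 4 of the 17 regions (42.9% of all listed), AP-1 in 4 (25.3%), RUNX in 5 (19.3%), GATA in 3 (17.2%), PU.1 in 2 (13.2%), TCF/LEF in 2 (13.1%) and T-box in 1 (7.18%). No paired analysis was possible because WT and dKO share replicate numbers but enter as group means only. Leaving out a library, another normalisation and a count test all need values per library and were not run.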
